A study of Mus musculus with 10 samples.

Results

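The 10 genes described here are *Notch1*, *Notch2*, *Notch3*, *Notch4*, *Jag1*, *Jag2*, *Dll4*, *Hes1*, *Hey1* and *Heyl*, chosen by symbol as receptors, ligands and targets of the Notch pathway from the 49568 genes of the normalized expression table. All 10 were present, and the mean normalized count of each over the 10 mice passed the minimum of 10 that was set for a test. Reactive cholangiocytes, the bile duct cells that expand in an injured liver, were sorted as live EPCAM+/CD45-/TER119- cells from mice fed 0.1% DDC, a diet that injures bile ducts, for 2 weeks. RNA of the sorted cells was sequenced as 1 sample per mouse in 5 control mice (*Ctl*, labelled Smad4 wt/wt) and 5 mice with a liver-specific *Smad4* deletion (*Smad4del*, labelled Smad4 fl/fl). *Smad4* encodes the shared signal transducer of the TGFβ and BMP pathways. In *Smad4del* mice, the Cre recombinase is driven by the albumin promoter, which is active in hepatocytes and in the hepatoblasts from which hepatocytes and cholangiocytes derive. The *Ctl* mice lacked the *Alb-Cre* allele, so deletion of *Smad4* and presence of Cre cannot be told apart here. Mice of both cohorts were on a mixed background with littermates as controls where possible, and age and sex were not given in the labels.

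Notch receptors are membrane proteins that are cut when a ligand of the Jagged or Delta-like family on a neighbouring cell binds them. The freed intracellular part enters the nucleus, joins the DNA-binding protein RBPJ and switches on genes of the HES and HEY families, which encode transcriptional repressors. In liver, JAG1 and NOTCH2 are known for their part in the formation of bile ducts, whereas NOTCH4 and DLL4 are known from endothelium and NOTCH3 from vascular smooth muscle.

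Values are given as counts normalized by DESeq2 (normalized counts), which are not corrected for gene length. Between 16249719 and 21277339 reads were assigned to genes in the *Ctl* mice, and between 16734672 and 19710560 in the *Smad4del* mice. *Smad4* averaged 3389 ± 347 normalized counts in *Ctl* and 877 ± 144 in *Smad4del* mice (SD, n = 5 each), and the cohorts did not overlap. *Id1* and *Id3*, known targets of BMP signalling, were lower by log2 fold changes of -2.40 and -2.11, again without overlap. Each sample was a mixture of the sorted cells, so fewer cells of a type and less RNA per cell cannot be told apart in any value below.

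The level of 9 of the 10 genes was lower in *Smad4del* than in *Ctl* mice, by log2 fold changes between -0.19 and -2.27, whereas *Jag1* stood at 0.06. Of all genes tested, 50.6% had a log2 fold change below 0. The median log2 fold change was -0.89 over the 10 Notch genes and -0.0050 over the 14870 genes tested. None of the 10 passed the test across all genes, which was limma on log2(normalized count + 1) with Benjamini-Hochberg adjustment at 0.05, where 4.69% of all genes tested were called lower. At an unadjusted p under 0.05 limma called 6 Notch genes lower and 0 higher (*Notch1*, *Notch3*, *Notch4*, *Jag2*, *Dll4* and *Hey1*), beside 15.1% of all genes called lower. DESeq2, run on the reads recovered from the normalized counts, called 5 of the 10 lower (*Notch3*, *Notch4*, *Jag2*, *Dll4* and *Hey1*), beside 8.72% of all genes. Without mouse A5217, which had the lowest counts of *Notch1*, *Notch3*, *Dll4* and *Hey1*, DESeq2 called 2 (*Jag2* and *Hey1*), beside 6.47% of all genes. The edgeR quasi-likelihood test called 1 (*Hey1*), beside 4.02% of all genes, and 0 without A5217, beside 265 of the 14870 genes. In 2 of the 10 genes, *Notch4* and *Jag2*, every *Smad4del* mouse was below every *Ctl* mouse, which held for 4.59% of all genes tested.

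**Figure D1:**
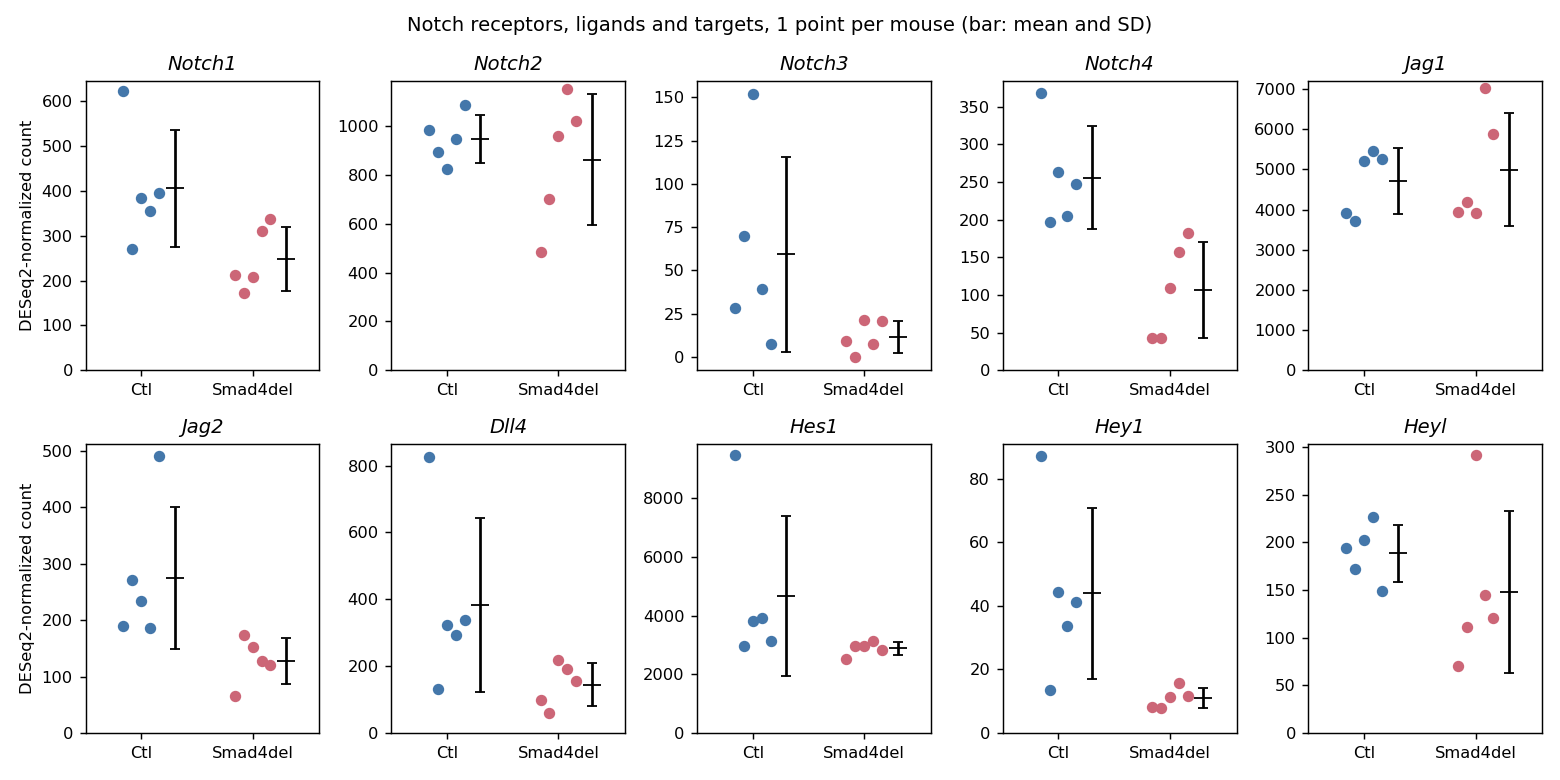
Normalized counts (y axes, linear, 1 panel per gene, each with its own scale from 0) of the 10 Notch genes in the 5 *Ctl* (blue) and 5 *Smad4del* (red) mice, each point being a mouse and the black bar the mean with its SD. The cohorts are apart in *Notch4* and *Jag2*, and the high *Ctl* point in *Notch1*, *Notch4*, *Dll4*, *Hes1* and *Hey1* is mouse A5215.

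*Notch4* (chr17:34564268-34588503, plus strand, GRCm38) encodes a receptor best known from endothelial cells. In the *Ctl* mice A5215, A5219, A5221, A5626 and A5628 its normalized counts were 368, 197, 263, 204 and 248. In the *Smad4del* mice A5216, A5217, A5218, A5447 and A5624 they were 42.5, 42.9, 110, 157 and 182. The cohorts did not overlap, but the *Smad4del* mice themselves spread from A5216 and A5217 at the bottom to A5624, whose value lay just below that of A5219, the lowest *Ctl* mouse. The mean was 256 ± 68.5 in *Ctl* and 107 ± 63.8 in *Smad4del* mice (SD, n = 5 each). The log2 fold change was -1.47 (SE 0.415, 95% interval -2.37 to -0.56), with an adjusted p of 0.0540 in limma, 0.0198 in DESeq2 and 0.0875 in edgeR. Limma called it lower without the *Smad4del* mouse A5447 (adjusted p = 0.0370) and without A5624 (adjusted p = 0.0383), whereas without A5217 the log2 fold change was -1.21 (adjusted p = 0.120) and without A5215 it was -1.33 (adjusted p = 0.115). The call by DESeq2 was lost without A5217 (adjusted p = 0.0557).

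*Notch1* (chr2:26457903-26516663, minus strand) encodes a receptor that is used in many tissues. In the same order, the *Ctl* mice had 622, 270, 384, 356 and 396 normalized counts. The *Smad4del* mice had 211, 172, 207, 310 and 337. The cohorts overlapped, since A5447 and A5624 exceeded A5219. The mean was 406 ± 131 in *Ctl* and 248 ± 71.9 in *Smad4del* mice, a log2 fold change of -0.70 (SE 0.246, 95% interval -1.24 to -0.17, adjusted p = 0.0963 in limma and 0.0502 in DESeq2).

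*Notch2* (chr3:98013527-98150361, plus strand) encodes the receptor tied to bile duct formation. For *Notch2*, 987, 893, 825, 948 and 1086 normalized counts were found in the *Ctl* mice. Values in the *Smad4del* mice were 485, 702, 960, 1152 and 1020, so that this cohort held both the lowest and the highest mouse. The mean was 948 ± 98.1 in *Ctl* and 864 ± 268 in *Smad4del* mice, a log2 fold change of -0.19 (SE 0.206, 95% interval -0.64 to 0.26, adjusted p = 0.573 in limma). Without A5216, the lowest mouse, the log2 fold change was -0.00078.

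*Notch3* (chr17:32120820-32166852, minus strand), known from vascular smooth muscle and pericytes, had the lowest level per kb of exon of the receptors. Normalized counts were 28.3, 69.6, 152, 39.3 and 7.77 in the *Ctl* mice. They were 9.33, 0, 21.3, 7.37 and 20.9 in the *Smad4del* mice. The *Ctl* mouse A5628 lay within the *Smad4del* range, and no *Smad4del* mouse reached the other *Ctl* mice. The 0 in A5217 allows a normalized count of up to 2.99, the value of 3 reads, which covers counting error only. Between 0 and 164 reads lay behind these values, and the log2 fold change of -2.27 had a wide 95% interval from -4.34 to -0.21 (SE 0.945, adjusted p = 0.147 in limma and 0.0486 in DESeq2). Without A5217 the log2 fold change was -1.51 (adjusted p = 0.269 in limma), the smallest of the values with 1 mouse left out, and the adjusted p in DESeq2 was 0.0750.

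*Dll4* (chr2:119325784-119335962, plus strand) encodes a Delta-like ligand best known from sprouting and arterial endothelium. The normalized counts of *Dll4* in the *Ctl* mice were 827, 132, 324, 293 and 339. Those in the *Smad4del* mice were 97.5, 59.9, 217, 191 and 157. A5219 was the only *Ctl* mouse within the *Smad4del* range, and A5215 stood above all other mice. The mean was 383 ± 262 in *Ctl* and 144 ± 65.0 in *Smad4del* mice, a log2 fold change of -1.30 (SE 0.462, 95% interval -2.31 to -0.29), with an adjusted p of 0.101 in limma, 0.0164 in DESeq2 and 0.0918 in edgeR. Without A5219 limma called it lower (log2 fold change -1.62, adjusted p = 0.0423), and without A5215 the log2 fold change was -0.96 (adjusted p = 0.198). Without A5217 the adjusted p in DESeq2 was 0.0559.

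*Jag2* (chr12:112907819-112929776, minus strand) encodes the second Jagged ligand. Its normalized counts were 190, 272, 234, 186 and 492 in the *Ctl* mice. Those in the *Smad4del* mice were 65.3, 174, 152, 127 and 120. The cohorts did not overlap, though the lowest *Ctl* mouse and the highest *Smad4del* mouse were close. The mean was 275 ± 126 in *Ctl* and 128 ± 40.8 in *Smad4del* mice, a log2 fold change of -1.07 (SE 0.319, 95% interval -1.77 to -0.38), with an adjusted p of 0.0617 in limma, 0.0129 in DESeq2 and 0.0692 in edgeR. Without A5628, the highest *Ctl* mouse, the log2 fold change was -0.84 (adjusted p = 0.100 in limma).

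*Jag1* (chr2:137081456-137116644, minus strand), the ligand known from bile duct development, was the ligand with the highest level per kb of exon in every mouse. Its normalized counts were 3911, 3716, 5204, 5453 and 5259 in the *Ctl* mice. In the *Smad4del* mice they were 3939, 4195, 3923, 7027 and 5884, and the ranges overlapped. The mean was 4709 ± 825 in *Ctl* and 4994 ± 1399 in *Smad4del* mice, a log2 fold change of 0.06 (SE 0.180, 95% interval -0.33 to 0.45, adjusted p = 0.858 in limma). The sign of this value was not stable, as it was below 0 without any 1 of 4 mice (A5215, A5219, A5447 or A5624).

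*Hes1* (chr16:30064384-30067796, plus strand), the most used readout of Notch signalling, encodes a repressor that is also set by other pathways. Its normalized counts were 9487, 2981, 3826, 3915 and 3140 in the *Ctl* mice. The *Smad4del* mice had 2525, 2956, 2965, 3139 and 2822 normalized counts. The *Smad4del* mice lay close together, the lower *Ctl* mice lay next to them, and A5215 alone was far above. The mean was 4670 ± 2724 in *Ctl* and 2882 ± 229 in *Smad4del* mice, a log2 fold change of -0.55 (SE 0.259, 95% interval -1.12 to 0.01, adjusted p = 0.190 in limma and 0.0541 in DESeq2). Without A5215 the log2 fold change was -0.26 (SE 0.104, adjusted p = 0.177 in limma).

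*Hey1* (chr3:8663359-8667256, minus strand) encodes a repressor that Notch induces in arterial endothelium and elsewhere. Its normalized counts were 87.1, 13.6, 44.4, 33.6 and 41.1 in the *Ctl* mice. In the *Smad4del* mice they were 8.29, 7.99, 11.2, 15.7 and 11.5. A5447 exceeded A5219, the lowest *Ctl* mouse, and there was no other overlap. The mean was 43.9 ± 26.9 in *Ctl* and 10.9 ± 3.10 in *Smad4del* mice, from 8 to 80 reads per mouse. The log2 fold change was -1.73 (SE 0.496, 95% interval -2.81 to -0.65), with an adjusted p of 0.0554 in limma, 0.00695 in DESeq2 and 0.0410 in edgeR. Without A5219 limma called it lower (log2 fold change -2.08, adjusted p = 0.0185), and without A5215 the log2 fold change was -1.43 (adjusted p = 0.131).

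*Heyl* (chr4:123233556-123249875, plus strand) encodes a HEY repressor known from smooth muscle and pericytes as a target of NOTCH3. Its normalized counts were 194, 172, 203, 226 and 149 in the *Ctl* mice. In the *Smad4del* mice they were 70.5, 111, 292, 145 and 121. All *Smad4del* mice but A5218 were below the *Ctl* mice, and A5218 was the highest of all. The mean was 189 ± 29.7 in *Ctl* and 148 ± 85.0 in *Smad4del* mice, a log2 fold change of -0.50 (SE 0.320, 95% interval -1.19 to 0.20, adjusted p = 0.334 in limma). Without A5218 it was -0.78 (adjusted p = 0.104 in limma), and without A5216, the lowest mouse, it was -0.27 (SE 0.286, adjusted p = 0.576).

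**Figure D2:**
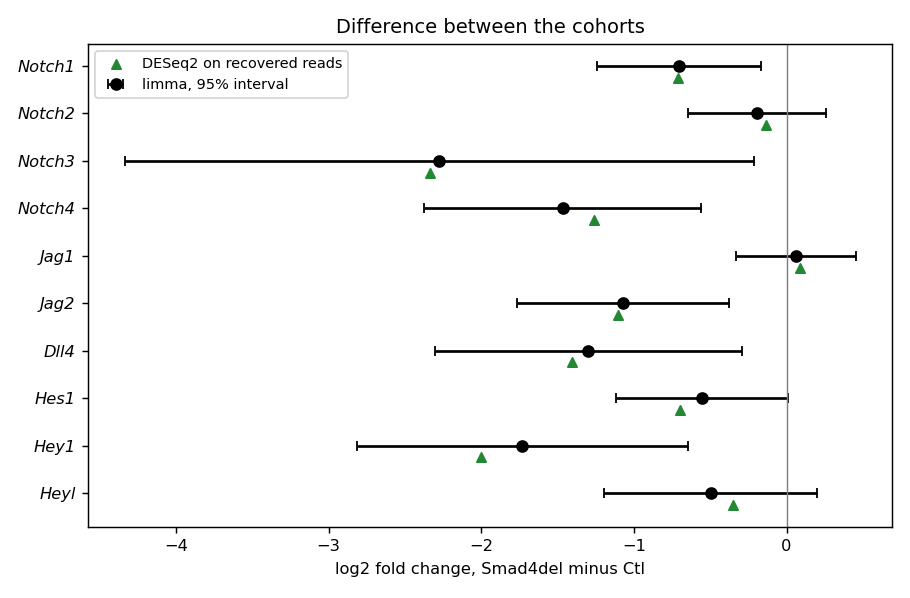
Log2 fold changes (x axis, *Smad4del* minus *Ctl*, so that values left of 0 are lower in *Smad4del*) of the 10 Notch genes (y axis), with 5 mice per cohort. Black points with bars are limma estimates with their unadjusted 95% intervals, which span 0 for *Notch2*, *Jag1*, *Hes1* and *Heyl*, and green triangles are DESeq2 estimates from the recovered reads.

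Exons of *Notch1*, *Notch2*, *Notch3* and *Dll4* overlap those of other genes (*0610009E02Rik*, *Gm13568*, *Gm42820*, *Gm17276* and *Gm14207*), whose mean normalized counts were 6.25 or lower, and reads in exons that genes share may not be told apart. *Gm42820* lies on the same strand as *Notch2*, and the others lie on the opposite strand, where the strand setting of the counting, which is not known here, decides.

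Genes can be ordered by level only after division by their exon length, which gave normalized counts per kb of exon (GENCODE exons, GRCm38). The length is that of all annotated exons of a gene merged, which can exceed the length of the transcript present. The order and the shares below therefore depend on the annotation. In *Ctl* mice, *Hes1* was highest at 2293 ± 1337 per kb (SD, n = 5), followed by *Jag1* at 808 ± 142, *Dll4* at 99.4 ± 67.9, *Notch2* at 87.9 ± 9.10, *Jag2* at 39.5 ± 18.1, *Heyl* at 36.9 ± 5.80, *Notch4* at 31.7 ± 8.50, *Notch1* at 28.5 ± 9.19, *Hey1* at 13.5 ± 8.24 and *Notch3* at 7.34 ± 6.96. The ranges of neighbours in this order were apart between *Hes1* and *Jag1*, between *Jag1* and *Dll4*, and between *Notch2* and *Jag2*, and overlapped between all other neighbours. In *Smad4del* mice, *Hes1* (1415 per kb) and *Jag1* (857) again led, and *Notch2* (80.1) came before *Dll4* (37.5), *Heyl* (28.9), *Jag2* (18.3), *Notch1* (17.4), *Notch4* (13.2), *Hey1* (3.34) and *Notch3* (1.46). Here the ranges were apart between *Hes1* and *Jag1*, between *Jag1* and *Notch2*, and between *Notch4* and *Hey1*. *Hes1* exceeded *Jag1* in 5 of 5 mice of each cohort.

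**Figure D3:**
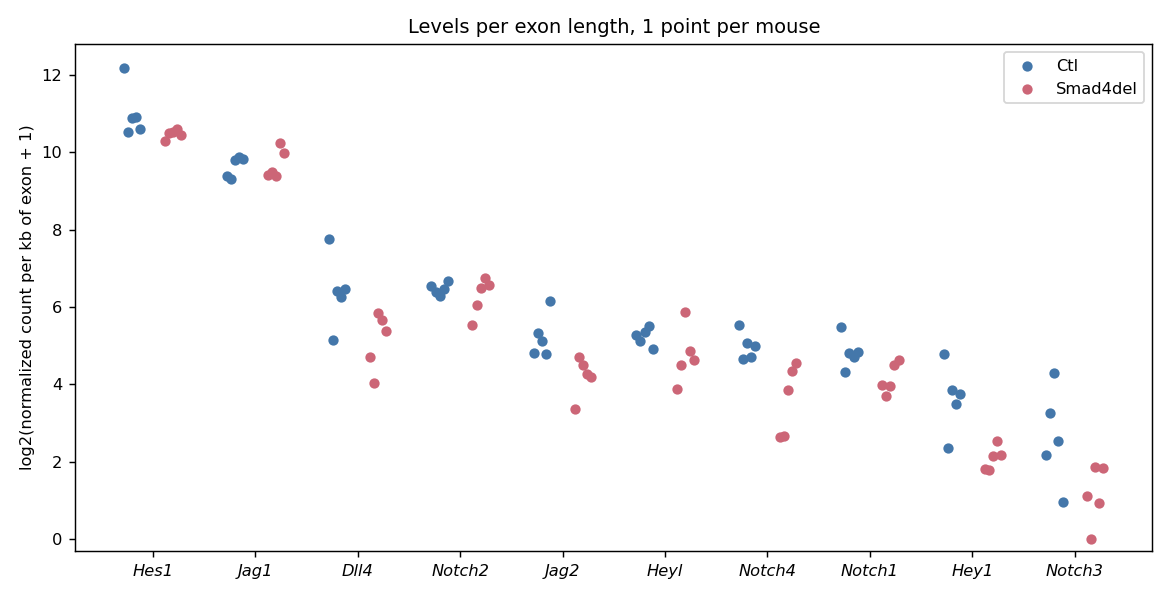
Levels of the 10 Notch genes as log2(normalized count per kb of exon + 1) (y axis) in *Ctl* (blue) and *Smad4del* (red) mice, with 1 point per mouse and genes ordered by their *Ctl* mean. *Hes1* and *Jag1* lie above all other genes in every mouse, and the order below them has overlapping neighbours.

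The makeup of the receptor transcripts was taken within each mouse. Taking the normalized counts per kb of the 4 receptors of a mouse as 100%, *Notch2* made up 49.4% to 62.9% in *Ctl* mice (median 61.4%) and 66.0% to 78.9% in *Smad4del* mice (median 71.7%). *Notch4* made up 17.7% to 24.7% in *Ctl* mice (median 19.2%) and 6.46% to 15.7% in *Smad4del* mice (median 11.3%). Both shares were apart between the cohorts, as a description with no test. *Notch1* overlapped, with 14.1% to 23.7% against 12.1% to 22.4%, as did *Notch3*, with 0.600% to 12.1% against 0% to 2.20%. Among the 3 ligands, *Jag1* made up 73.5% to 90.1% in *Ctl* and 89.6% to 95.1% in *Smad4del* mice, *Dll4* 4.81% to 23.5% and 2.04% to 7.50%, and *Jag2* 2.57% to 6.66% and 1.32% to 3.28%. The shares of a mouse sum to 100%, so a lower share of *Notch4* goes with a higher share of *Notch2* by construction.

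**Figure D4:**
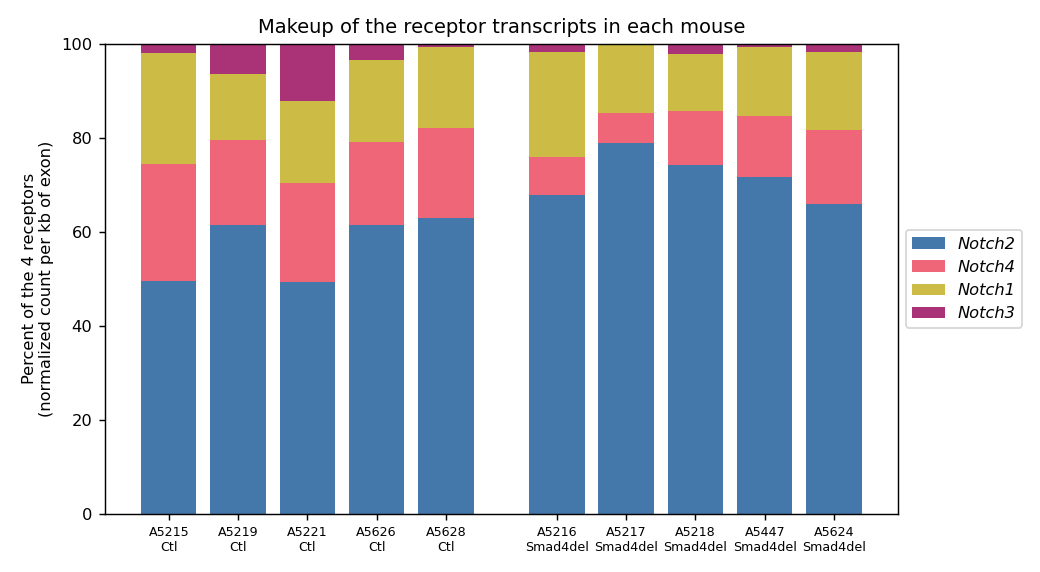
Share (y axis, percent) of each receptor in the summed normalized count per kb of exon of *Notch1*, *Notch2*, *Notch3* and *Notch4*, with 1 stacked bar per mouse (x axis, *Ctl* left, *Smad4del* right). The *Notch2* share is 66.0% or more in every *Smad4del* mouse and 62.9% or less in every *Ctl* mouse, and the *Notch4* share is the reverse.

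Markers of endothelial, smooth muscle, stellate and macrophage cells were mostly lower in *Smad4del* mice, whereas hepatocyte markers were mostly higher. Of 30 endothelial markers, all 30 had a log2 fold change below 0, limma called 24 lower, and the cohorts did not overlap in 22, with a median log2 fold change of -1.48. They include *Vwf*, the clotting factor carrier of endothelium (6558 ± 1916 normalized counts in *Ctl* and 2001 ± 773 in *Smad4del* mice), and *Ptprb*, an endothelial phosphatase (5977 ± 3052 and 1295 ± 510). The summed normalized count of the list was 36221 to 104353 in *Ctl* and 13616 to 27093 in *Smad4del* mice, and no marker of it was at 0 in all mice. Its mean log2 level, 9.54 to 10.9 in *Ctl* and 8.17 to 9.09 in *Smad4del* mice, was highest in A5215 and, among *Ctl* mice, lowest in A5219. These are the same mice that were highest and lowest among *Ctl* mice for *Notch1*, *Notch4*, *Dll4*, *Hes1* and *Hey1*. That was not so for *Notch2*, *Notch3*, *Jag1*, *Jag2* and *Heyl*, though A5219 was lowest among *Ctl* mice for *Jag1*. A5215 also had the highest level of the smooth muscle and pericyte, stellate cell and fibroblast, macrophage and lymphocyte lists. The part of endothelial RNA in the values of the Notch genes was not tested. The covariate fit below cannot separate it from the cohort, because the endothelial level did not overlap between the cohorts.

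Of 12 smooth muscle and pericyte markers, 2 were called lower (median log2 fold change -0.85, summed counts 15587 to 18708 in *Ctl* and 14170 to 16707 in *Smad4del* mice). Of 12 stellate cell and fibroblast markers, 1 was called lower (median -1.19, sums 18161 to 48443 and 8740 to 15460). Of the 2 highest markers in each list, *Smtn* (928 and 554 normalized counts in *Ctl* and *Smad4del* mice) and *Dcn* (15000 and 3259) were called lower, and *Rgs5* (13080 and 13385) and *Col3a1* (9283 and 5153) were not. None of 16 macrophage markers was called (median -2.48, sums 40534 to 361343 and 29029 to 121469, with A5215 highest), although cells with CD45 had been sorted out. The 2 highest were *Lyz2* (39435 ± 32953 in *Ctl* and 13644 ± 17177 in *Smad4del* mice) and *Cd14* (29803 ± 4805 and 24152 ± 2645), and *Ptprc*, which encodes CD45, averaged 1044 ± 1024 and 332 ± 478. Of the 15 cholangiocyte markers, 2 were called higher and 1 lower, and their summed counts of 380034 to 554332 in *Ctl* and 556910 to 683789 in *Smad4del* mice exceeded those of every other list in each cohort. They were led by *Spp1*, osteopontin, at 359949 ± 57427 in *Ctl* and 457072 ± 49119 in *Smad4del* mice, and *Cdh1*, E-cadherin, at 31638 ± 3471 and 35432 ± 6579. Hepatocyte markers (12, sums 64203 to 96761 and 72121 to 111004, led by *Gc* at 49299 and 41701 and *Alb* at 19419 and 31512) and lymphocyte markers (3 of 10 tested, led by *Ptprc* and *Cd79b*, the latter at 42.5 and 14.2) gave 0 calls in limma. The median log2 fold change was 0.55 for the hepatocyte list, with 3 of 12 below 0, and -1.14 for the lymphocyte list.

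**Figure D5:**
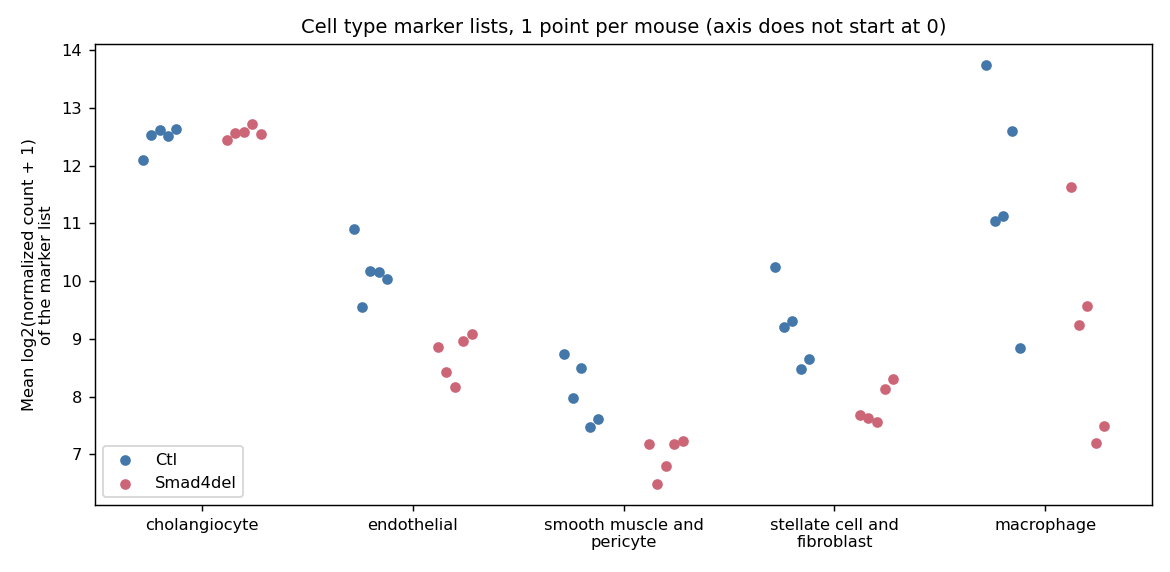
Mean log2(normalized count + 1) (y axis, which does not start at 0) over each list of cell type markers (x axis) in *Ctl* (blue) and *Smad4del* (red) mice, with 1 point per mouse. The cohorts are apart for the endothelial, smooth muscle and pericyte, and stellate cell and fibroblast lists and overlap for the cholangiocyte and macrophage lists.

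With the endothelial marker level of each mouse as a covariate in limma, the estimates of *Notch1*, *Dll4*, *Hes1* and *Hey1* turned positive, at log2 fold changes of 0.55 (SE 0.321), 0.48 (SE 0.813), 0.56 (SE 0.422) and 0.09 (SE 0.891), and that of *Notch4* was -0.34 (SE 0.830). *Jag2* was at -1.96 (SE 0.631), *Notch3* at -2.12 (SE 2.09), *Heyl* at -1.01 (SE 0.680), *Notch2* at -0.07 (SE 0.451) and *Jag1* at 0.46 (SE 0.371). The covariate was apart between the cohorts, so its fit has large errors and called 0 genes of all 14870, and the adjusted p of *Jag2* was 0.843. With the macrophage level as the covariate, limma called *Jag2* lower (log2 fold change -1.63, SE 0.301, adjusted p = 0.0179), and *Notch4* was at -1.91 (adjusted p = 0.0522). With the smooth muscle and pericyte level, *Hes1* was at 0.10 and *Jag2* at -1.73 (adjusted p = 0.628). Over all alternatives run, the lowest adjusted p was 0.00695 for *Hey1*, 0.0109 for *Jag2*, 0.0164 for *Dll4*, 0.0198 for *Notch4*, 0.0486 for *Notch3*, 0.0502 for *Notch1*, 0.0541 for *Hes1*, 0.104 for *Heyl*, 0.159 for *Notch2* and 0.477 for *Jag1*. The highest was 0.843 for *Jag2* and 0.9999 for the other genes, each with a marker covariate.

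The other genes of the pathway were described from a list of 62, all present in the table, of which 53 were tested. Limma called 1 higher, beside 2.43% of all genes tested, and 3 lower, beside the 4.69% given above, and 49 did not pass. Their median log2 fold change was -0.04 with 29 of 53 below 0, beside 50.6% of all genes, so these counts were near those of all genes. Of the 3 lower genes, 2 act on the receptor. *Lfng*, the Fringe enzyme that adds sugars to the receptor and so sets which ligands it answers, ranged from 155 to 691 normalized counts in *Ctl* mice (median 286) and from 68.9 to 229 in *Smad4del* mice (median 70.0), a log2 fold change of -1.83 (SE 0.441, adjusted p = 0.0304 in limma). *Adam10*, the protease that makes the first ligand-induced cut, fell from 4338 ± 805 to 2892 ± 513 without overlap (log2 fold change -0.59, SE 0.146, adjusted p = 0.0345 in limma). *Onecut1*, a transcription factor of biliary development, was the gene called higher, from 365 ± 71.1 to 561 ± 82.4 (log2 fold change 0.62, SE 0.163, adjusted p = 0.0413 in limma). *Lfng*, *Adam10* and *Onecut1* each lost its call without A5215 or without A5217, with adjusted p-values between 0.0600 and 0.0905 in limma. *Adam10* also lost it without A5626, A5628 or A5218 and *Lfng* without A5221, A5626, A5218 or A5624, while *Onecut1* kept it only without A5628 or A5216. The highest adjusted p with 1 mouse left out was 0.0878 for *Adam10*, 0.0773 for *Lfng* and 0.0942 for *Onecut1*. None of the 3 passed with the block of mouse number series (adjusted p = 0.0525 for *Lfng*, 0.0534 for *Adam10* and 0.0579 for *Onecut1* in limma). A5447 was the only mouse of its series, so this fit in effect compared the cohorts without it. None passed with a marker covariate either, where the log2 fold change of *Lfng* was -0.48 with the endothelial, -1.14 with the smooth muscle and -0.84 with the macrophage level. That of *Adam10* was 0.15, -0.21 and -0.51 in the same order, and that of *Onecut1* 0.33, 0.41 and 0.31.

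Among 14 genes of ubiquitination and sorting, *Neurl3*, a ubiquitin ligase, averaged 4130 and 4918 normalized counts in *Ctl* and *Smad4del* mice (log2 fold change 0.26, adjusted p = 0.105 in limma), and *Itch*, a ligase that marks the receptor for degradation, 2196 and 1853 (-0.25, adjusted p = 0.265). *Dll1*, the 1 tested gene of the 5 other ligands, averaged 583 ± 110 and 513 ± 129 (log2 fold change -0.20, adjusted p = 0.525 in limma). *Dlk1*, a Delta-like protein of fetal liver, was too low for the test, at 6.43 ± 6.19 and 0.184 ± 0.412. Of 7 genes in the group of other HES and HEY factors and *Nrarp*, 2 had counts high enough for the test. *Hes6* averaged 1120 ± 148 and 1298 ± 98.3 (log2 fold change 0.22, adjusted p = 0.212 in limma). *Nrarp*, a feedback inhibitor that Notch induces, averaged 66.8 ± 11.8 and 67.2 ± 7.08, a log2 fold change of 0.02 (adjusted p = 0.973 in limma). *Hes3* was at 0 in all mice. *Hey2*, too low for the test, averaged 9.79 ± 9.89 in *Ctl* mice, with a lowest value of 0. It was at 0 in all *Smad4del* mice. *Hes2*, *Hes5*, *Dll3* and *Dner* were at 0 there too, but their medians were also 0 in *Ctl* mice. Their *Ctl* means were 0.222, 0.435, 0.222 and 3.19 normalized counts in that order, so these genes were low in both cohorts. *Sox9*, the biliary transcription factor, averaged 7774 ± 1213 and 8235 ± 1032 (log2 fold change 0.09, adjusted p = 0.670 in limma). Of the 4 biliary fate genes, which include *Onecut1* and *Sox9*, only *Onecut2* had a log2 fold change below 0. It averaged 1451 ± 185 and 1093 ± 152 without overlap (log2 fold change -0.41, adjusted p = 0.0611 in limma), and DESeq2 called it lower.

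The genes most like each Notch gene were found by Pearson's r of log2(normalized count + 1) over the 10 mice, after the cohort mean was taken from each value, among 12534 tested genes with a mean of at least 50. Each mouse is a sample of its own, and since r was the highest of many it is given as a description. *Dll4* was closest to *Id4* (r = 0.977) and *Atp7a* (0.964), *Notch4* to *Tmem87a* (0.958) and *Susd6* (0.954), *Notch1* to *B4galt1* (0.968) and *Jak1* (0.965), and *Notch2* to *Iws1* (0.977) and *Pbrm1* (0.956). *Jag2* was closest to *Pygo2* (0.988) and *Sox9* (0.951), and *Jag1* to *Copa* (0.980) and *H6pd* (0.976). *Hey1* was closest to *Ntn4* (0.958) and *Mia3* (0.952), *Heyl* to *Caprin2* (0.934) and *Zfp688* (0.932), and *Notch3* to *Rhoc* (0.896) and *Armcx6* (0.892). *Hes1* was closest to *Ugt1a7c* (0.954) and *Scarb1* (0.953), the latter at 0.807 without A5215.

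SMAD proteins bind DNA at the letters CAGAC, which read GTCTG when taken from the opposite strand. RBPJ binds at a core of TGGGAA, which likewise reads TTCCCA from the opposite strand. They were searched on both strands in RefSeq promoters of GRCm38.p6, each 300 bases long, from 250 before to 50 after the transcription start, which were held for 7 of the 10 genes (not for *Hes1*, *Hey1* and *Heyl*). The SMAD element was present in 49.6% of 32851 promoters, 3 times in *Dll4* (the last pair overlapping by 1 base), 2 times in *Notch3*, and 1 time each in *Notch4* and *Jag1*. The promoters of *Notch1*, *Notch2* and *Jag2* did not hold these letters. The RBPJ core was in 25.6% of all promoters and in 0 of the 7, and GGCGCC, another SMAD element, was in 11.9% and in 0 of the 7. Among the 14080 promoters of tested genes the shares were 47.9% for CAGAC, 23.7% for the RBPJ core and 19.8% for GGCGCC. The promoters of *Dll4* and *Notch4*, from genes with lower counts in *Smad4del* mice, and of *Jag1*, at 0.06 on the log2 scale, are shown 5′ to 3′ on the gene's strand with the SMAD element of either strand in capitals. They lie at chr2:119325534-119325833 (*Dll4*, plus strand), chr17:34564045-34564344 (*Notch4*, plus strand) and chr2:137116471-137116770 (*Jag1*, minus strand). A match describes these letters only.
Dll4: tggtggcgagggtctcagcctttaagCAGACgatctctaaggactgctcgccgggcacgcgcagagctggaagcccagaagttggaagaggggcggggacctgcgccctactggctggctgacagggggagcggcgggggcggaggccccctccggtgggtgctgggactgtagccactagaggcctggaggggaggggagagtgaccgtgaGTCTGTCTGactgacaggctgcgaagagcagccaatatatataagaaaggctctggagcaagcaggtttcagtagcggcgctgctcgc
Notch4: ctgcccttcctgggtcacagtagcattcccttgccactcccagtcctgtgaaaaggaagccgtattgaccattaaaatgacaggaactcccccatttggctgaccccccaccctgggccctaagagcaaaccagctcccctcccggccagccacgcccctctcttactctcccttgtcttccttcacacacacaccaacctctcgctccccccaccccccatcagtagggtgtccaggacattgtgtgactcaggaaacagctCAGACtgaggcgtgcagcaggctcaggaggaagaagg
Jag1: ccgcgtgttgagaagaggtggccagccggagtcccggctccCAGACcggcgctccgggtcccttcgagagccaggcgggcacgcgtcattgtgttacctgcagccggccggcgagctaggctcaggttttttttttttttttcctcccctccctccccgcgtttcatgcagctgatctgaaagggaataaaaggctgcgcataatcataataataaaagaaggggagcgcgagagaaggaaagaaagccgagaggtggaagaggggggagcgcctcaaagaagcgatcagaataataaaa
Counted from the transcription start, the capitals begin at -224, -38 and -34 in *Dll4*, at -209 in *Jag1* and at 14 in *Notch4*.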

How the data were processed

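The tissue, cohorts and sorting are as described above. Mice are named by the numbers in the labels. The labels also carry a cell line tag and a culture protocol, but the paper's methods describe sorting from digested livers, which was followed. According to the paper's methods, SMART-Seq v4 libraries were sequenced with single-end reads. After trimming (Trimmomatic 0.36) and alignment to GRCm38.p5 (STAR), the authors used featureCounts to count the reads of each gene. The deposited values are a signal: these counts after division by a size factor for each mouse, from DESeq2 1.14.1 under R 3.3.2. A further build, mm9, is listed in the notes of the submitters and was not used here. The authors counted with and without multi-mapping reads, and neither the choice deposited nor the strand setting is stated in the sources used here.

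Dividing the values of each mouse by its smallest value above 0 gave whole numbers for 100% of genes (relative tolerance 1e-06), taken as reads. In A5217 the value of 1 read was 0.998, close to 1, but its values too were whole multiples of this step at that tolerance. Because the step was close to 1, the count tests were repeated without A5217, a choice made after seeing the data. Of the 49568 genes, 14870 reached a mean of 10 and were tested as log2(normalized count + 1) with limma 3.58.1 in R 4.3.3 (trended prior, cohort as the only term, Benjamini-Hochberg adjustment over all tested genes at 0.05). Fold changes on this scale understate those of low genes. As alternatives, the recovered reads were tested with DESeq2 1.42.0 and with the quasi-likelihood test of edgeR 4.0.16. In limma, the pseudocount (0.5 or 10), the filter (none, or a mean of 50) and the scaling (quantile or median) were varied, a block of mouse number series or a covariate was added (*Xist*, as sex was not given, or the endothelial, smooth muscle or macrophage marker level), and each mouse was left out. The fits were also run on simulated counts with set fold changes. Each gene was drawn on its own there, so a shift in cell makeup was not tested.

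The genes named are the 10 Notch genes, *Smad4*, *Id1* and *Id3*, pathway genes that passed the test or, in a group with none, the 2 with the highest mean, the 2 highest markers of a list, and for each Notch gene the 2 most like it. The values of 1 pathway gene that passed the test are not reported here. *Hes2*, *Hes3*, *Hes5*, *Hey2*, *Dll3*, *Dner*, *Sox9* and *Onecut2* were added after their values were seen. The 10 genes and the lists were chosen with earlier results of these data known. Positions are from GENCODE M21 (GRCm38). The 5 mice per cohort are separate animals, and their number limits the precision.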

Additional observations from a re-analysis of the deposited data

Results flagged for a closer look

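In each cohort of 5 mice, the highest and the lowest mouse were compared with the others by their gap to the nearest mouse over the whole range, for the 10 Notch genes (20 cohorts in all, by Dixon's test at the 95% level). Chance alone marks about 1 in 20 such cohorts, and 2 were marked here. *Hes1* stood far above the other *Ctl* mice in A5215, at 9487 normalized counts against 3915 in the nearest mouse (gap over range 0.856). *Jag2* stood above the other *Ctl* mice in A5628, at 492 normalized counts against 272 in the nearest mouse (gap over range 0.720). A5215 was also the mouse with the highest endothelial, smooth muscle and pericyte, stellate cell and fibroblast, macrophage and lymphocyte marker levels. It had the lowest cholangiocyte and hepatocyte levels, and the part of any of these in its *Hes1* value was not tested.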

How the results depend on the processing

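Of 248 values of the 10 Notch genes under alternatives, 222 kept their direction and stayed uncalled, 15 gained a call and 11 changed sign. None of the 10 was called in the main limma fit, so no call could be lost. *Jag1* was below 0 with the block of mouse number series (-0.0095), with the macrophage covariate (-0.22) and without A5215 (-0.0012), A5219 (-0.020), A5447 (-0.073) or A5624 (-0.0087), and at most 0.14 with 1 mouse left out. With the endothelial covariate *Notch1* (0.55), *Dll4* (0.48), *Hes1* (0.56), *Hey1* (0.094) and *Adam10* (0.15) were above 0, as was *Hes1* with the smooth muscle covariate (0.10). The count of Notch genes called lower, 0 in limma, was 1 with a pseudocount of 10, a minimum mean of 50 (*Notch4* in both) or the macrophage covariate (*Jag2*), 5 with DESeq2 (2 without A5217), 1 with edgeR, and 0 to 2 with 1 mouse left out (2 without A5219, 1 without A5447 or A5624). Of all genes, 831 were called lower without A5219, 841 without A5447 and 507 without A5624, and the counts for the other settings are given above or below. *Notch3* and *Hey1* had no value at a minimum of 50.

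Among the other pathway genes, 1 was called higher and 3 lower. The higher count was 2 with a pseudocount of 10 or a minimum of 50, 3 with quantile scaling, median scaling, DESeq2 or the *Xist* covariate, and 0 with no filter, the block, each marker covariate or edgeR without A5217. The lower count was 7 with DESeq2 (6 without A5217), 2 with no filter or the block, 1 with the macrophage covariate, and 0 with the endothelial or smooth muscle covariate or edgeR without A5217. With 1 mouse left out the higher count ran from 0 to 3 and the lower from 0 to 5. Over all genes, 362 were called higher and 697 lower. The counts were 209 and 512 with no filter, 579 and 607 with quantile scaling, 626 and 639 with median scaling (which moved the median log2 fold change of all genes to 0.06), and 893 and 1290 with DESeq2. With a pseudocount of 10 they were 406 and 742, and with a minimum of 50, where fewer genes were tested, 419 and 705. With *Xist* they were 407 and 849, with the block 426 and 718, and with edgeR 313 and 598. They were 0 and 0 with the endothelial, 1 and 8 with the smooth muscle and 145 and 387 with the macrophage covariate, and 89 and 265 with edgeR without A5217. With 1 mouse left out they ran from 99 to 564 and from 324 to 841, lowest without A5217 and highest without A5447. The cause of these shifts was not tested.

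No paired analysis was possible because the labels give mouse numbers and no replicate numbers that pair the cohorts. At 5 mice per cohort the intervals of *Notch2* and *Jag1* still allow log2 fold changes down to -0.64 and up to 0.45.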
